A study of Homo sapiens with 12 samples.

Results

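The 10 genes described here set, or mark, where a cell stands between the epithelial and the mesenchymal state. They are the transcription factors SNAI1, SNAI2, TWIST1, TWIST2, ZEB1 and ZEB2, the filament gene VIM, the splicing regulators ESRP1 and ESRP2, and the transcription factor GRHL2. They were taken by symbol from the 26485 gene symbols of the count tables, and none was left out for its values. The choice was made with earlier results of these data known. Of the 10, 9 had enough reads to be among the 16373 genes tested, and GRHL2 did not.

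Messenger RNA was sequenced from 2 human lung lines, both labelled wild type: A549, which derives from a lung adenocarcinoma, and BEAS-2B, called B2B here, which derives from bronchial epithelium and was immortalised with viral genes. Cells of each line were left untreated (NT) or were exposed during 72 h to SR11302 at 10 µM, a synthetic retinoid that opposes the AP-1 transcription factors, or to SP600125 at 50 µM, which inhibits JNK, the kinase that phosphorylates the AP-1 subunit Jun. This gave 12 libraries in 6 groups of 2: A549_NT, A549_SR11302, A549_SP600125, B2B_NT, B2B_SR11302 and B2B_SP600125. Both compounds came in DMSO. The labels call the control cells non-treated, whereas a figure caption of the study speaks of DMSO-treated A549 controls, so whether they received the solvent is not settled here.

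In an epithelial to mesenchymal transition (EMT), cells give up their junctions and polarity and become motile. The zinc finger proteins of the SNAI and ZEB families and the basic helix-loop-helix TWIST proteins drive it by binding short E-box sequences and silencing epithelial genes such as the cadherin CDH1, while ESRP1 and ESRP2 maintain epithelial splice forms and GRHL2 keeps epithelial genes active and opposes ZEB1. Vimentin, the product of VIM, forms the intermediate filaments of mesenchymal cells and is also abundant in many cultured carcinoma lines.

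Levels are given as counts scaled to a common library size (CPM) after TMM scaling, and differences as log2 fold changes ± SE with the adjusted p of edgeR's quasi-likelihood test. A gene was called where the adjusted p was under 0.05 and the fold change at least 0.5 on the log2 scale. Reads counted in genes numbered 13969766 to 24917854 per library. Reads that the counting step assigned to no annotated feature made up 23.8 to 25.9% of the tally in the 4 untreated libraries. In the 8 treated ones they made up 14.6 to 20.1%. Handling that differed between untreated and treated libraries therefore cannot be told apart from treatment, and the comparisons of the inhibitors within a line share the untreated libraries. The labels do not say that the 2 libraries of a group came from separate cultures, so the p-values measure the spread between libraries. In bulk RNA, fewer cells with a transcript and less transcript per cell cannot be told apart.

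The lines differed in the cell type markers they carried. Fibroblast markers summed to 4708 and 4813 CPM in B2B_NT and to 8.78 and 21.6 CPM in A549_NT, with the collagen chain COL1A1 at 4296 and 4391 CPM in B2B_NT. Among the 8 fibroblast markers, DCN and LUM had no read in B2B_NT, and PDGFRA stood at 0.192 and 0.244 CPM there. Of these 8 markers, 7 are also in the mesenchymal list used below. The epithelial adhesion gene EPCAM stood at 67.6 and 63.6 CPM in A549_NT but at 1.63 and 2.16 CPM in B2B_NT, although the epithelial keratins KRT7, KRT8 and KRT18 were present in both lines. Of the basal keratins, KRT5 and KRT14 stayed under 1 CPM in each library, whereas KRT17 stood at 388 and 418 CPM in B2B_NT and 38.9 and 59.2 CPM in B2B_SP600125, against 0.222 and 1.54 CPM in A549_NT. The 6 markers of blood cells summed to 46.4 to 50.9 CPM in A549_NT and 3.93 to 4.10 CPM in A549_SP600125, nearly all of it CD68, and to 14 CPM in B2B_NT and 7.38 to 11.2 CPM in B2B_SP600125, while the leukocyte gene PTPRC stayed under 1 CPM and CD3E had no read. The 5 endothelial markers summed to 21.1 to 24.8 CPM in A549_NT and 29.2 to 30.0 CPM in A549_SP600125, and to 5.21 to 5.41 and 13.1 to 16.4 CPM in the matching B2B groups. The part of these markers in the results was not tested. Each untreated second library held a larger share of reads of genes specific to the other line than the first did. Where these reads came from was not tested. The 29 genes specific to A549 reached 0.622% of their A549 level in B2B_NT replicate 2 and 0.0507% in replicate 1, and the 10 specific to B2B reached 0.407% of their B2B level in A549_NT replicate 2 and 0.160% in replicate 1.

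**Figure D1:**
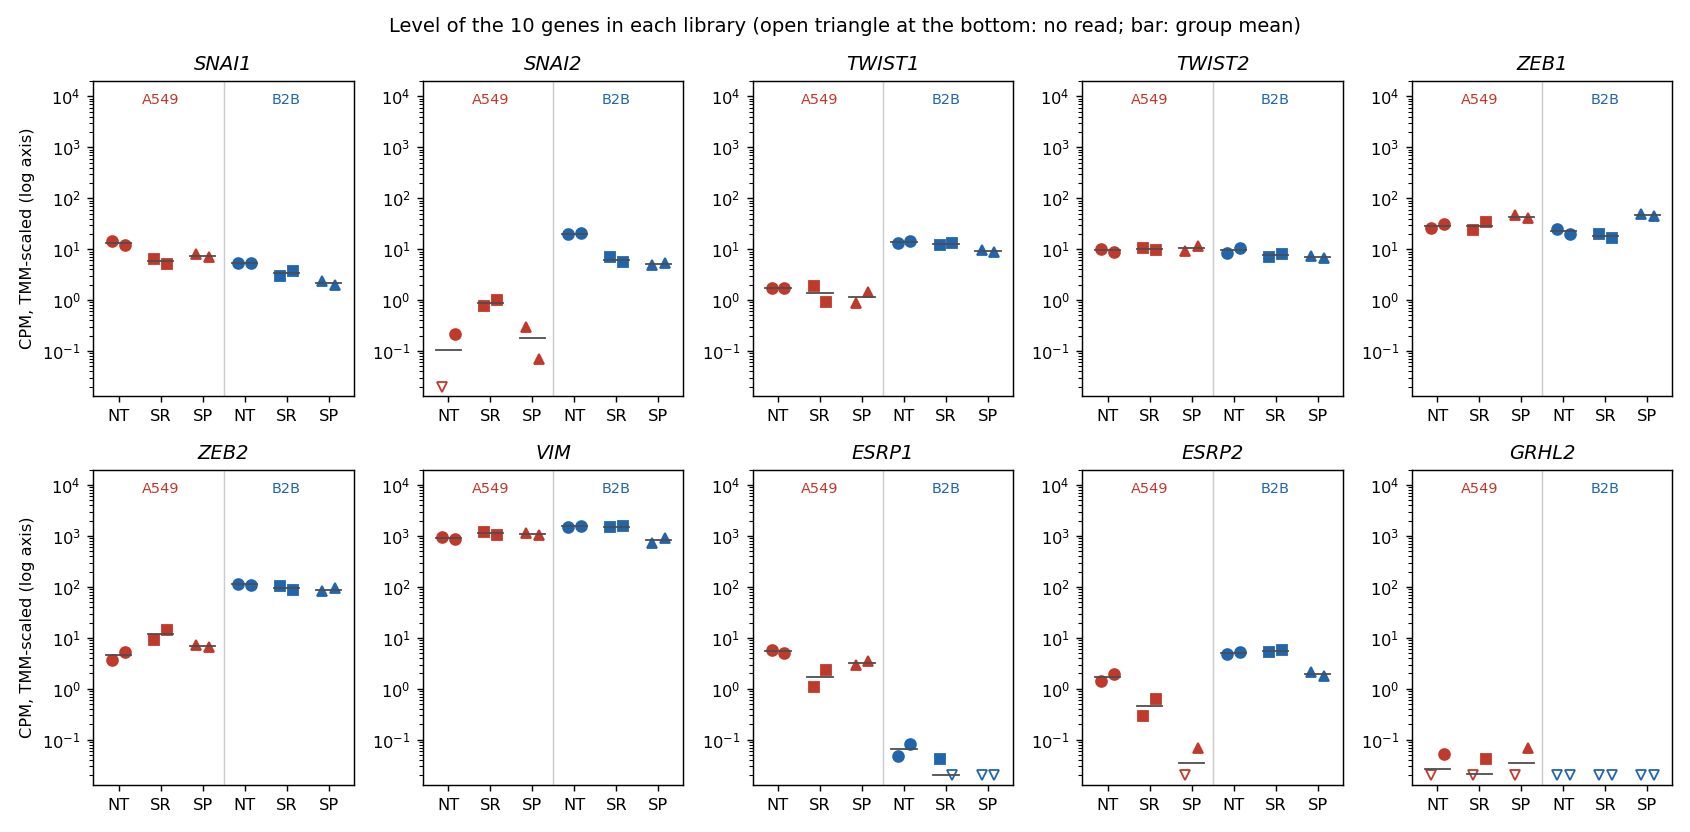
Level of each of the 10 genes in each of the 12 libraries, in CPM on a log axis, for A549 (red) and B2B (blue) without treatment (NT, circles), with SR11302 (SR, squares) and with SP600125 (SP, triangles). Bars are group means and open triangles mark libraries with no read, so that SNAI2 and ZEB2 stand far higher in B2B, ESRP1 is near 0 in B2B, and VIM is between 745 and 1581 CPM everywhere.

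Most of the 9 tested members separated the lines, whatever the treatment. Between A549_NT and B2B_NT, 7 passed, of which 2 stood higher in A549 and 5 in B2B, where 56.9% of all genes tested were called. SNAI1 and ESRP1 were the higher ones, and SNAI2, TWIST1, ZEB2, VIM and ESRP2 the lower ones. Under SR11302 the same comparison called 7, 3 higher and 4 lower, against 56.5% of all genes, and under SP600125 it called 7, again 3 higher and 4 lower, against 58.2%. In these comparisons SNAI1 and ESRP1 were higher in A549 each time and SNAI2, TWIST1, ZEB2 and ESRP2 lower each time. VIM passed only without treatment, ZEB1 only under SR11302 and TWIST2 only under SP600125.

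**Figure D2:**
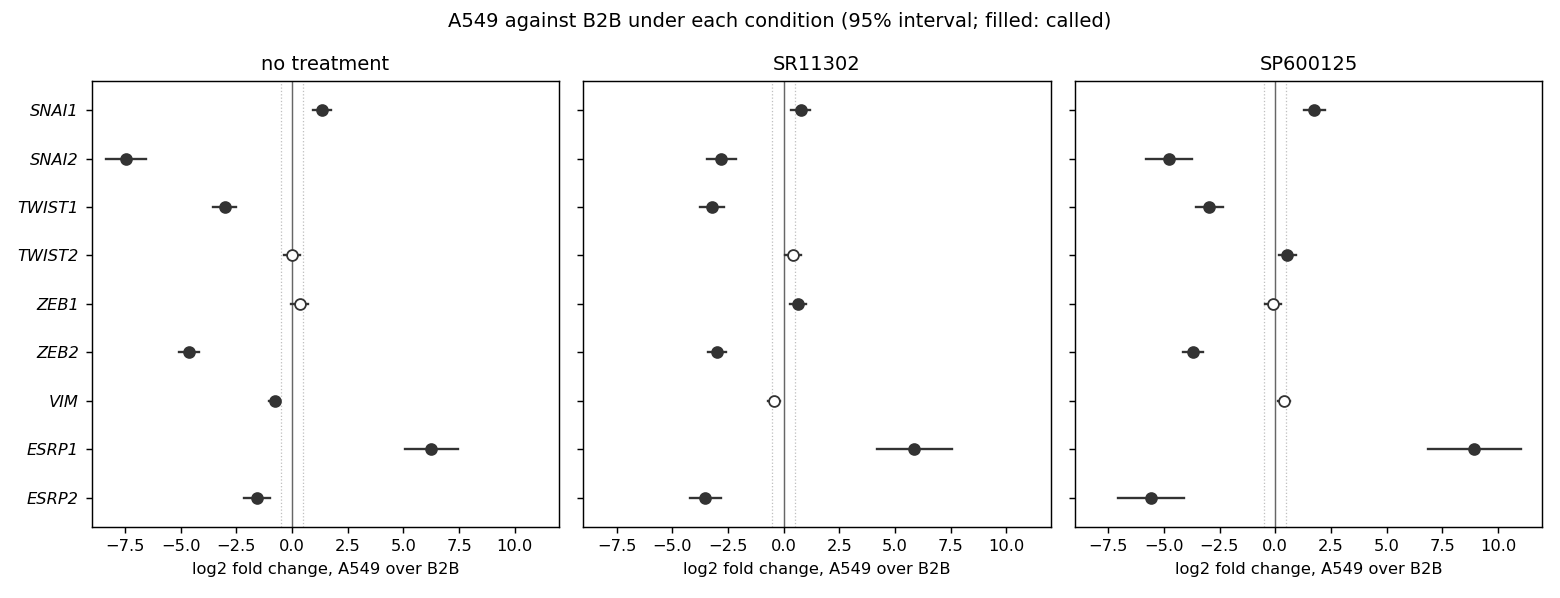
Log2 fold change of A549 over B2B for the 9 tested genes without treatment and under each inhibitor, with its 95% interval; filled points were called and dotted lines mark the fold minimum. ESRP1 lies far to the right and SNAI2, ZEB2, TWIST1 and ESRP2 to the left in all 3 panels, while VIM moves from -0.79 without treatment to 0.39 under SP600125.

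Against no treatment, SNAI1 changed in each of the 4 comparisons, TWIST2 in none of them, and the other tested members in some. SR11302 called 5 of 9 in A549, 2 higher and 3 lower, where 27.8% of all genes were called, and 2 of 9 in B2B, both lower, where 22.5% were. SP600125 called 5 in A549, 2 higher and 3 lower, where 48.8% of all genes were called, and 6 in B2B, 1 higher and 5 lower, where 43.8% were. The effect of SR11302 differed between the lines for 3 members (SNAI2, ZEB2 and ESRP2), against 15.8% of all genes, and that of SP600125 for 3 (ZEB2, VIM and ESRP2), against 25.2%. With 9 genes, no excess over the share of all genes was read from these counts.

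**Figure D3:**
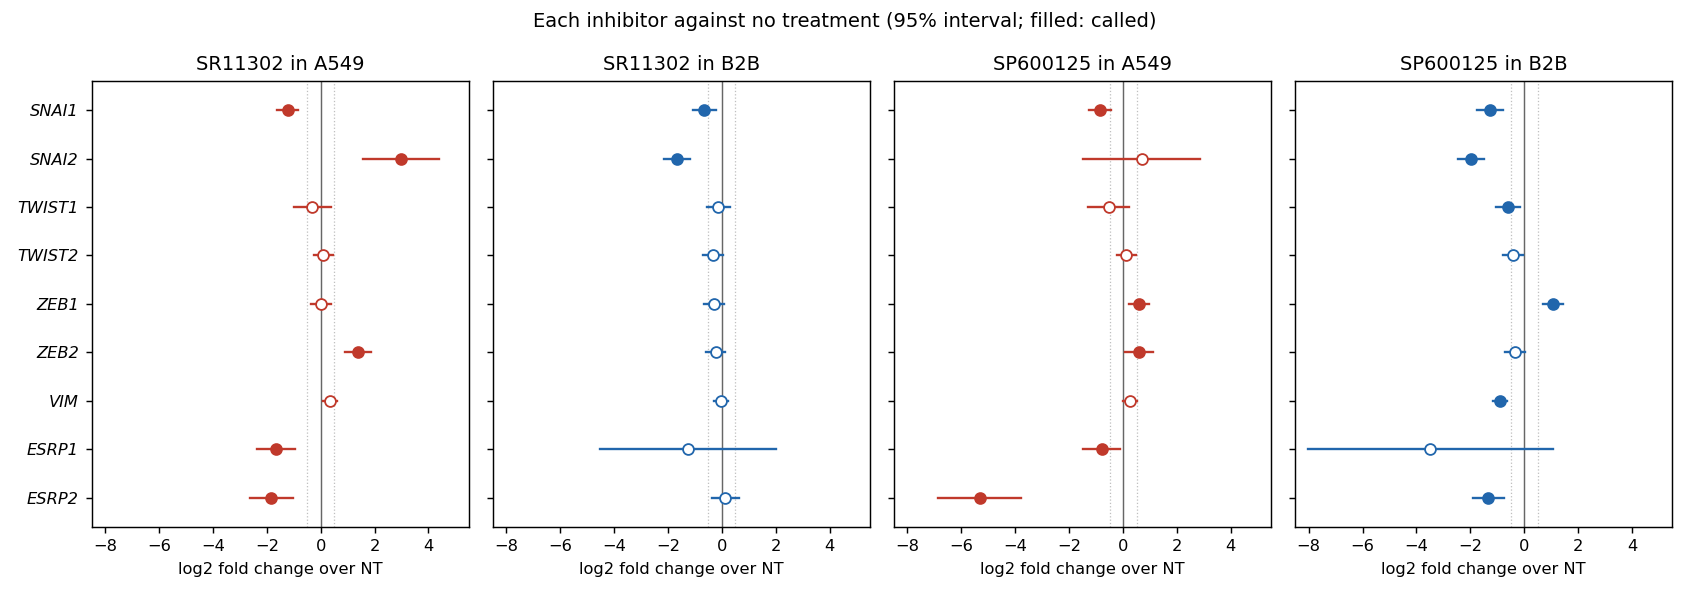
Log2 fold change over no treatment for the 9 tested genes, for each inhibitor in A549 (red) and B2B (blue), with its 95% interval; filled points were called and dotted lines mark the fold minimum. SNAI1 is lower in all 4 panels, SNAI2 is at 2.97 in A549 and -1.67 in B2B under SR11302, and ESRP2 reaches -5.32 in A549 under SP600125.

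SNAI1, which encodes the SNAIL repressor of CDH1, was higher in A549 than in B2B and fell with each inhibitor in each line. It stood at 14.5 and 12.3 CPM in A549_NT, 6.36 and 5.15 in A549_SR11302 and 7.90 and 6.96 in A549_SP600125. In B2B it stood at 5.27 and 5.29 CPM in NT, 3.0 and 3.77 with SR11302 and 2.39 and 1.95 with SP600125. In each line both untreated libraries lay above all treated ones, and no library of one group overlapped with another group of the line. The line difference was 1.34 ± 0.18 without treatment (adjusted p = 1.69e-05), 0.77 ± 0.20 under SR11302 and 1.76 ± 0.22 under SP600125. In A549 the fold change was -1.22 ± 0.18 with SR11302 (adjusted p = 0.000199) and -0.85 ± 0.18 with SP600125 (adjusted p = 0.00136), and in B2B it was -0.65 ± 0.20 (adjusted p = 0.0269) and -1.27 ± 0.22 (adjusted p = 0.000278). The smallest of these, SR11302 in B2B, missed the threshold without any one of B2B_NT replicate 1, B2B_NT replicate 2 and B2B_SR11302 replicate 1, where it was -0.48 in the last case. The line difference under SR11302 missed it without B2B_SR11302 replicate 1 (0.60, adjusted p = 0.0533). Neither inhibitor's effect differed detectably between the lines, with a difference of -0.57 for SR11302 (95% interval -1.15 to 0.02) and 0.42 for SP600125 (-0.20 to 1.04).

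SNAI2, which encodes the related repressor SLUG, was close to absent from untreated A549 and abundant in B2B, and SR11302 moved it in opposite directions. It had 0 and 4 reads in A549_NT (0 and 0.212 CPM), 16 and 24 in A549_SR11302 (0.777 and 1.00 CPM) and 4 and 1 in A549_SP600125 (0.298 and 0.0689 CPM). In B2B it stood at 19.8 and 20.4 CPM in NT, 6.99 and 5.52 with SR11302 and 4.94 and 5.29 with SP600125. Every B2B library was above every A549 library, and within B2B both untreated libraries were far above the treated ones. B2B_NT held 185 times the level of A549_NT (95% counting interval 72.1 to 681), B2B_SR11302 7.09 times that of A549_SR11302 (5.07 to 10.1) and B2B_SP600125 28.5 times that of A549_SP600125 (12.0 to 88.8). The fitted line difference without treatment, -7.45 ± 0.41, became -11.61 without A549_NT replicate 2. The intervals cover counting error only.

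In B2B, SNAI2 fell by 1.67 on the log2 scale with SR11302 (adjusted p = 0.000131) and by 1.97 with SP600125 (adjusted p = 1.13e-05). In A549 it rose by 2.97 ± 0.65 with SR11302 (adjusted p = 0.00321), to a level that was still lower than in any B2B group. That value rests on the few reads of the untreated libraries, being 2.05 without A549_NT replicate 1 (adjusted p = 0.0319) and 7.13 without replicate 2. The share of B2B-specific reads in A549_NT replicate 2, if all of it held for SNAI2, would give 0.0817 CPM of its 0.212. The SR11302 effect differed between the lines by 4.65 ± 0.66 (adjusted p = 0.00036), or 8.81 without A549_NT replicate 2. With SP600125 in A549 the change was 0.69 ± 1.01, which was not detectable at this depth, and the difference between the lines, 2.66 ± 1.10, missed the threshold (adjusted p = 0.0911) but passed it with DESeq2 (2.71, adjusted p = 0.0325), without the filter on low counts (adjusted p = 0.0359) and without A549_NT replicate 2 (6.82). It was 1.37 (adjusted p = 0.68) without A549_SP600125 replicate 1, and the A549 change itself ran from -0.60 without that library to 4.85 without A549_NT replicate 2.

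TWIST1, a basic helix-loop-helix factor of mesoderm development, was far lower in A549 than in B2B, with or without an inhibitor. It stood at 1.72 and 1.70 CPM in A549_NT, 1.89 and 0.921 in A549_SR11302 and 0.894 and 1.45 in A549_SP600125, and at 13.5 and 14.5, 12.3 and 13.1, and 9.67 and 8.70 CPM in the matching B2B groups. In A549 the SR11302 libraries overlapped both other groups, the SP600125 libraries lay under the untreated ones, and all 6 were under every B2B library. The line difference was -3.03 ± 0.25 without treatment (adjusted p = 8.88e-08), -3.20 ± 0.25 under SR11302 and -2.96 ± 0.29 under SP600125. Of its 4 changes with an inhibitor, 1 was called, the fall by 0.61 in B2B under SP600125 (adjusted p = 0.0214), and it was no longer called at -0.47 when libraries were scaled by size alone, or without any of B2B_NT replicate 1, B2B_NT replicate 2 and B2B_SP600125 replicate 2. The change in A549 under SR11302, -0.31 ± 0.32, was set by one library, since it was -0.89 (adjusted p = 0.0485) without A549_SR11302 replicate 1 and 0.17 without replicate 2.

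TWIST2, the close relative of TWIST1, had the flattest profile of the 9. Its levels were 10.1 and 8.97 CPM in A549_NT, 10.5 and 9.83 in A549_SR11302 and 9.39 and 11.4 in A549_SP600125. In B2B they were 8.43 and 10.4 CPM in NT, 7.07 and 8.0 with SR11302 and 7.48 and 6.69 with SP600125. All 12 values lay within 6.69 to 11.4 CPM, and the untreated lines overlapped. The untreated difference was 0.01 ± 0.17 (95% interval -0.35 to 0.37), and no inhibitor effect was called, the widest being -0.41 ± 0.17 in B2B under SP600125 (adjusted p = 0.0577). Under SP600125 TWIST2 was higher in A549 than in B2B by 0.55 ± 0.18 (adjusted p = 0.0138), which became 0.36 when libraries were scaled by size alone, and was also not called without A549_SP600125 replicate 2 (0.40) or B2B_SP600125 replicate 2 (0.47).

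ZEB1 was similar in the untreated lines and rose with SP600125 in both, while its paralog ZEB2 marked B2B and rose with SR11302 in A549. ZEB1 stood at 25.8 and 31.3 CPM in A549_NT, 23.8 and 33.4 in A549_SR11302 and 46.7 and 40.1 in A549_SP600125. In B2B it stood at 24.8 and 20.3 CPM in NT, 19.9 and 16.7 with SR11302 and 48.9 and 44.4 with SP600125. All 4 libraries with SP600125 were above all 8 others, and the untreated lines differed by 0.35 ± 0.18 (95% interval -0.03 to 0.72). The rise with SP600125 was 1.05 ± 0.17 in B2B (adjusted p = 0.000197) and 0.60 ± 0.17 in A549 (adjusted p = 0.00884). The latter was no longer called without A549_NT replicate 1 (0.48) or A549_SP600125 replicate 1 (0.50). The difference between the 2 rises was -0.45 (95% interval -0.98 to 0.08). SR11302 moved ZEB1 by 0.01 ± 0.17 in A549 and by -0.30 ± 0.18 in B2B, neither called, and under SR11302 ZEB1 was higher in A549 than in B2B by 0.65 ± 0.18, a call lost without A549_SR11302 replicate 2 (0.40) or B2B_SR11302 replicate 2 (0.53).

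ZEB2 stood at 3.72 and 5.31 CPM in A549_NT, 9.27 and 14.4 in A549_SR11302 and 7.23 and 6.48 in A549_SP600125, and at 114 and 110, 105 and 85.7, and 82.0 and 94.7 CPM in the matching B2B groups. The lowest B2B library was well above the highest A549 one, and in A549 each treated library was above both untreated ones. The line difference was -4.63 ± 0.22 without treatment (adjusted p = 2.5e-10) and narrowed to -3.00 ± 0.19 under SR11302. SR11302 raised ZEB2 in A549 by 1.39 ± 0.22 (adjusted p = 0.00034) and left it at -0.23 ± 0.17 in B2B, not called, and these effects differed by 1.62 ± 0.28 (adjusted p = 0.00155). The rise with SP600125 in A549, 0.60 ± 0.24, was at the threshold (adjusted p = 0.0489) and was lost with RLE size factors (adjusted p = 0.0539), with the replicate number as a block (adjusted p = 0.0508) and without 7 of the 12 libraries in turn, its value being 0.37 without A549_NT replicate 1. Its difference from the -0.34 ± 0.17 in B2B, 0.94 ± 0.30 (adjusted p = 0.0322), was lost without 6 of the 12 libraries and when libraries were scaled by size alone (0.88, adjusted p = 0.0519). The share of B2B-specific reads in A549_NT replicate 2 would give 0.456 CPM of its 5.31.

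The change with SP600125 in A549 also moved with base composition across genes. Over the 14856 tested genes with a known GC content, Spearman's rho between GC content and log2 fold change was -0.390 in A549 and -0.121 in B2B under SP600125, and -0.182 and 0.134 under SR11302. The ZEB1 and ZEB2 transcripts are AT-rich, at 38.9% and 39.0% GC. The median log2 fold change of the 2206 genes within 2 percentage points of ZEB1 was 0.40 in A549 under SP600125, against 0.60 for ZEB1 itself, and 0.06 in B2B, against 1.05. For the 1842 genes near SNAI1, at 58.4% GC, that median was -0.38 in A549, against -0.85 for SNAI1. The part of GC content in these changes was not tested.

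Promoter sequences are shown for ZEB1, ZEB2 and VIM, members that an inhibitor moved, since both the E-boxes that SNAI, ZEB and TWIST proteins read and the sites of AP-1 are short and can be searched for. The sequences are those of RefSeq on GRCh38.p14, from 250 bases before to 50 after a transcript start, for 4 of the 10 members and 10 promoters, 7 of them of ZEB1. Capitals mark the E-box CACCTG or its reverse complement CAGGTG, which 20.6% of 35116 promoters of this length contain; each match is also one of the more general CANNTG, which 68.7% contain. The first ZEB1 window, chr10:31318966-31319265 on the plus strand, had 3 matches, at -242, -85 and 33 counted from 0 at the start, and a second one, chr10:31318167-31318466, had 1, at -57. The other 8 promoters, including those of ZEB2 at chr2:144520070-144520369 on the minus strand, of VIM at chr10:17227991-17228290 on the plus strand and of TWIST2, had none. The AP-1 consensus TGANTCA, found in 7.71% of all promoters, was in none of the 10.
ZEB1: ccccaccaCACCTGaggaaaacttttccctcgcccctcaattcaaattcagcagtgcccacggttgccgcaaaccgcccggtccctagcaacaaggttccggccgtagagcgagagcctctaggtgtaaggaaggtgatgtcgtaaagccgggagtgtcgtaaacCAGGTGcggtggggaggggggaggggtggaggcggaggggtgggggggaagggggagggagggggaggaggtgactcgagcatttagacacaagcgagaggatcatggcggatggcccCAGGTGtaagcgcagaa
ZEB1, second window: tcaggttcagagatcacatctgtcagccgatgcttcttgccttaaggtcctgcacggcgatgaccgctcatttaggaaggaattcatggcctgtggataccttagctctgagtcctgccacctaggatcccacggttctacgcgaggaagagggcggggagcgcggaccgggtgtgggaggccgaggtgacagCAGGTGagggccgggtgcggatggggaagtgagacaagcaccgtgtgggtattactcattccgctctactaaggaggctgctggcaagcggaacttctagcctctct
ZEB2: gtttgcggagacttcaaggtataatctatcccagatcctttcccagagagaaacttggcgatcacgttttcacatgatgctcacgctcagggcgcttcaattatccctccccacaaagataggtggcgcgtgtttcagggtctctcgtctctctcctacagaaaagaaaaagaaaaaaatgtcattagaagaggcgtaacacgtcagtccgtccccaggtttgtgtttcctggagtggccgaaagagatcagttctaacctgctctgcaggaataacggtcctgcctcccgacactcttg
VIM: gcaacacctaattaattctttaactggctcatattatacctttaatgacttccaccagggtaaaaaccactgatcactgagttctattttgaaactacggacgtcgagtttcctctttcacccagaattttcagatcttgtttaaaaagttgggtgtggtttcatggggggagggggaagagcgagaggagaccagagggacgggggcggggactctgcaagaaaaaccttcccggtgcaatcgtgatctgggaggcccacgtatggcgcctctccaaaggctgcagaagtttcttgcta
The letters say only what these windows hold, and binding was not measured in them here.

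VIM was by far the most abundant member, and of its 4 changes with an inhibitor the fall in B2B under SP600125 was the one called. It stood at 945 and 855 CPM in A549_NT, 1215 and 1053 in A549_SR11302 and 1132 and 1037 in A549_SP600125. In B2B it stood at 1526 and 1581 CPM in NT, 1518 and 1539 with SR11302 and 745 and 908 with SP600125. The B2B libraries with SP600125 thus overlapped the untreated A549 ones, and the 4 other B2B libraries were above every A549 library. The fall in B2B was by 0.91 ± 0.12 on the log2 scale (adjusted p = 3.36e-05), while the change in A549 was 0.27 ± 0.12 and was not called (adjusted p = 0.0709), a difference between the lines of 1.18 ± 0.17 (adjusted p = 0.000298). With SR11302 VIM moved by 0.33 ± 0.12 in A549, under the fold minimum, and by -0.02 ± 0.12 in B2B (95% interval -0.28 to 0.24). A549 was lower than B2B by 0.79 on the log2 scale without treatment (-0.79 ± 0.12, adjusted p = 5.54e-05), while the difference of -0.43 ± 0.12 under SR11302 and that of 0.39 ± 0.12 under SP600125 were under the fold minimum. The first of these passed the minimum when libraries were scaled by size alone (-0.52), and the other without B2B_SP600125 replicate 2 (0.54).

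The splicing regulators ESRP1 and ESRP2 were split between the lines. ESRP1 had 105 and 97 reads in A549_NT (5.84 and 5.15 CPM), 22 and 57 in A549_SR11302 (1.07 and 2.38 CPM) and 39 and 50 in A549_SP600125 (2.91 and 3.45 CPM), and 1 and 2, 1 and 0, and 0 and 0 reads in the matching B2B groups. It was thus all but confined to A549 in these libraries. A549_NT held 83.1 times the level of B2B_NT (95% counting interval 28.0 to 406), A549_SR11302 74.7 times that of B2B_SR11302 (13 to 2987), and A549_SP600125 was at least 37.9-fold higher than B2B_SP600125, taking 3 counts over the group as the floor. The share of A549-specific reads in B2B_NT replicate 2 would give 0.0342 CPM of its 0.0814. In A549 ESRP1 fell by 1.64 with SR11302 (adjusted p = 0.00189). The fall by 0.79 with SP600125 was at the threshold (adjusted p = 0.0494) and was lost with DESeq2 (adjusted p = 0.168), with scaling by size alone (adjusted p = 0.0822), with the replicate number as a block (adjusted p = 0.0514) and without 8 of the 12 libraries in turn, with adjusted p up to 0.21. Changes in B2B were not detectable at 0 to 2 reads per library.

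ESRP2 ran the other way, with 1.45 and 1.91 CPM in A549_NT against 4.84 and 5.17 in B2B_NT, a difference of -1.57 ± 0.27 (adjusted p = 0.000154). It stood at 0.291 and 0.628 CPM in A549_SR11302, at 0 and 0.0689 in A549_SP600125 (0 reads and 1 read), at 5.18 and 5.75 in B2B_SR11302 and at 2.13 and 1.83 in B2B_SP600125. In A549 the 3 groups did not overlap and fell from NT through SR11302 to SP600125, while in B2B the SP600125 libraries alone were lower. SR11302 lowered ESRP2 in A549 by 1.83 ± 0.38 on the log2 scale (-1.83, adjusted p = 0.0022) but not detectably in B2B (0.12 ± 0.23, 95% interval -0.38 to 0.63), and the difference, -1.95 ± 0.45, passed (adjusted p = 0.00946) except with both untreated second libraries left out (-1.78, adjusted p = 0.0987). Under SP600125, A549_NT held 47.0 times the level of A549_SP600125 (95% counting interval 8.13 to 1887), and the fall in B2B was by 1.33 (adjusted p = 0.000876). The fitted effects differed between the lines by -3.99 ± 0.88 (adjusted p = 0.00509). That value was -6.73 and the A549 effect -8.06, in place of -5.32, without A549_SP600125 replicate 2, which held the single read. ESRP2 overlaps NFATC3 on the other strand, and whether counting used strand is not given in the sources used here.

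**Figure D4:**
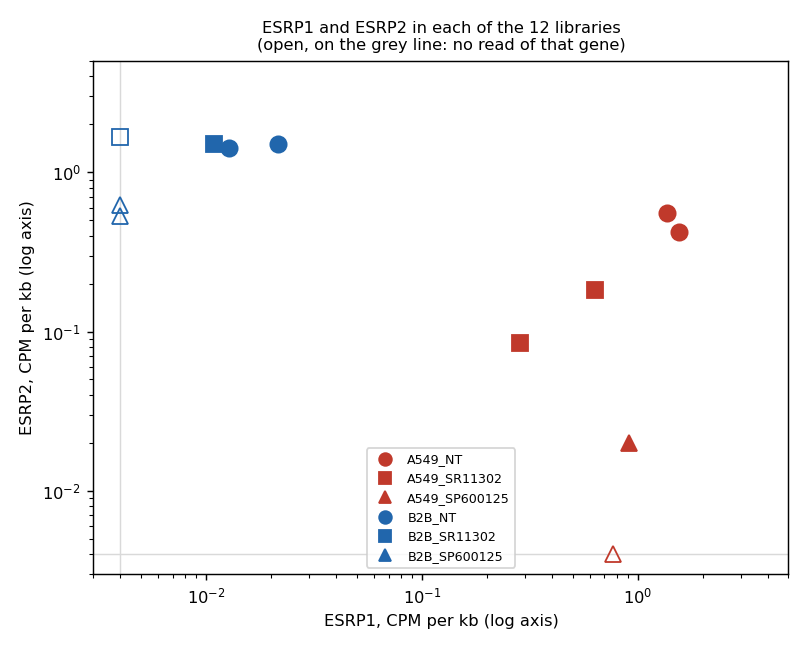
ESRP1 against ESRP2 in each of the 12 libraries, in CPM per kb of transcript on log axes, with A549 in red and B2B in blue; open symbols on a grey line had no read of that gene. A549 libraries lie to the right, with ESRP2 falling from NT to SP600125, and B2B libraries lie to the upper left with at most 2 reads of ESRP1.

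GRHL2 was not detectable as expressed in either line. It had 3 reads over the 12 libraries, 1 in the second library of each A549 group, and none in the other 9 libraries, where 3 counts would correspond to 0.122 to 0.223 CPM. It did not pass the filter and no comparison was made. Of its paralogs, GRHL1 stood at 2.39 and 2.97 CPM in A549_NT and 2.87 and 2.56 in B2B_NT, and rose in B2B by 1.79 ± 0.22 under SP600125. GRHL3 rose under SP600125 by 1.73 ± 0.27 in A549 and by 2.01 ± 0.37 in B2B.

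To compare levels between members, CPM were divided by the length of the main transcript. On this scale of CPM per kb, VIM led in each group (418 in A549_NT and 721 in B2B_NT). In A549_NT it was followed by SNAI1 (7.85), TWIST2 (7.09), ZEB1 (4.81), ESRP1 (1.46) and TWIST1 (1.05), with ZEB2 and ESRP2 at 0.49 each and SNAI2 at 0.049. In B2B_NT it was followed by ZEB2 (12.1), SNAI2 (9.21), TWIST1 (8.59), TWIST2 (7.02), ZEB1 (3.79), SNAI1 (3.10), ESRP2 (1.46) and ESRP1 (0.017). SNAI2 thus stood above SNAI1 in B2B_NT and far under it in A549_NT, and ZEB2 likewise against ZEB1. In B2B_SP600125, ZEB2 (9.54) and ZEB1 (7.86) headed the transcription factors.

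The genes lie, in GENCODE v44 on hg38, on chromosome 20 for SNAI1 (49982980 to 49988886), 7 for TWIST1 (19020991 to 19117636), 2 for TWIST2 (238848032 to 238910534) and ZEB2 (144364364 to 144521057), 10 for ZEB1 (31318495 to 31529814) and VIM (17228241 to 17237593), 16 for ESRP2 (68229033 to 68238102) and 8 for SNAI2 (48917598 to 48921740), ESRP1 (94641074 to 94707466) and GRHL2 (101492439 to 101669726). The main transcripts run from 1342 bases in 2 exons for TWIST2 to 9265 bases in 10 exons for ZEB2. VIM, ZEB1 and ZEB2 overlap antisense genes, and 62.2% of the 50-base windows of the VIM transcript occur in no other annotated transcript on either strand, against 94.7% for ESRP2, 97.6% for ZEB2 and all or nearly all for the others. How reads from such shared stretches were counted is not given in the sources used here.

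For each tested member, the 3 genes with the most similar profile were sought among genes of at least 10 CPM, by Pearson's r over the 12 libraries after subtracting the mean of each line. These points share libraries, so r is a description. SNAI2 was closest to TPM1 (0.967), a tropomyosin of the actin cytoskeleton, then STK26 and PAPPA. ZEB1 was closest to PTP4A1 (0.980), TPP2 and RAB31, ZEB2 to PDP1 (0.976), EMB and DOCK4, and SNAI1 to PHYKPL (0.977), HSPA1B and EIF3F. VIM was closest to TLDC1 (0.968), FAM101B and TLN2, ESRP2 to PER2 (0.971), TOB2 and SEH1L, and ESRP1 to NFIA (0.950), FGL1 and the immediate early gene EGR1. TWIST1 was closest to NME4 (0.945), HSD17B1 and SCARF2. TWIST2, which varied least, had the weakest match, TPST2 at 0.808, before L3HYPDH and FRMD8.

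The genes that these factors are known to act on were examined as lists. The lists were chosen with earlier results of these data known, so their counts are a description. Of 30 tested epithelial genes under GRHL2 or repressed by ZEB and SNAIL factors, 22 were higher and 5 lower in A549_NT than in B2B_NT, with a median of 2.29 against 0.05 over all genes. CDH1 stood at 122 and 128 CPM in A549_NT and at 0.575 and 1.79 in B2B_NT, and EPCAM as given above. Of 37 tested mesenchymal genes, 3 were higher and 30 lower in A549_NT (median -3.24), with POSTN, which encodes the matrix protein periostin, at 343 and 340 CPM in B2B_NT and 0 and 0.85 in A549_NT. Among 13 other epithelial transcription factors, 10 were higher and 2 lower (median 2.98), with ELF3 (8.07 ± 0.31) among the higher ones. Of all genes, 56.9% were called between the untreated lines, 4977 higher and 4339 lower in A549.

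With SR11302 in A549, SNAI2 and ZEB2 were called higher and SNAI1, ESRP1 and ESRP2 lower. Of 30 epithelial genes, 8 were lower and 3 higher (median -0.30). Of 37 mesenchymal genes, 15 were higher and 2 lower (median 0.27). Over all genes in this comparison 27.8% were called, 2423 higher and 2134 lower. EPCAM fell by 1.42 (adjusted p = 6.1e-06), and the collagenase MMP2 rose by 4.30 ± 0.25. SPARC rose by 3.09 ± 0.51, from 0.33 and 7.06 CPM. The higher of these was in A549_NT replicate 2, which had the larger share of reads of B2B-specific genes. CDH1 stood at 97.0 and 115 CPM, against 122 and 128 without treatment. In B2B the counts ran the other way: 8 epithelial genes were higher and 4 lower (median 0.47), led by MAL2 (3.20 ± 0.45), and 13 mesenchymal genes were lower and 6 higher (median -0.38), with POSTN at -2.17 ± 0.26, where 22.5% of all genes were called, 1863 higher and 1814 lower. The effect of SR11302 differed between the lines for 19 mesenchymal genes in favour of A549 and 2 in favour of B2B, and for 2 and 11 epithelial genes, against 15.8% of all genes. Of 19 other EMT-linked transcription factors, 3 rose and 5 fell in A549, and 2 rose and 5 fell in B2B. TCF4 rose by 1.94 ± 0.20 in A549, and HMGA2 (-2.94 ± 0.22) and SOX9 (-2.08 ± 0.18) fell in B2B. TCF4 was also higher in B2B_SR11302, at 18.0 and 15.4 CPM, than in B2B_NT, at 7.33 and 7.49. SOX9 was also lower in A549_SR11302, at 32.9 and 52.6 CPM, than in A549_NT, at 69.8 and 73.9. HMGA2 went the other way in A549, from 42.1 and 48.2 to 60.3 and 79.0 CPM.

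With SP600125 in A549, 13 of 30 epithelial genes were lower and 3 higher (median -0.52), with the desmosomal PKP3 at -2.72 ± 0.14. Called genes were 48.8% of all genes here, 3910 higher and 4087 lower, so the number called in this list was near that of genes at large. CDH1 was one of the 3, rising by 1.71 ± 0.18 to 438 and 380 CPM. Of the members, ZEB1 and ZEB2 were called higher here and SNAI1, ESRP1 and ESRP2 lower. Of the 37 mesenchymal genes 7 were higher and 10 lower (median -0.16), again near that share, with the smooth muscle actin ACTA2 at 3.76 ± 0.17. In B2B, SNAI1, SNAI2, TWIST1, VIM and ESRP2 were called lower and ZEB1 higher. Of the 37 mesenchymal genes, 27 were lower and 2 higher (median -1.20), with COL1A1 (-3.53 ± 0.29) and TAGLN (-3.72 ± 0.25) among the lower ones. Of the 30 epithelial genes, 11 were lower and 9 higher (median 0.04), where 43.8% of all genes were called, 3478 higher and 3696 lower. Fibroblast markers summed to 598 and 607 CPM in B2B_SP600125. Of the 5 endothelial markers, 3 were called higher with SP600125 in each line, and 2 were called lower in A549 and 0 in B2B. EGFL7 went from 23.3 and 19.5 to 14.4 and 14.9 CPM in A549. In B2B it went from 4.45 and 4.19 to 6.08 and 6.15 CPM. PECAM1, an endothelial adhesion gene, went from 0 and 0 to 3.59 and 4.87 CPM in B2B and from 0.0556 and 0.212 to 7.08 and 6.27 CPM in A549, and its part in these results was not tested. The other epithelial factors rose in 4 cases and fell in 2 in A549, and rose in 4 and fell in 1 in B2B. Of the other EMT-linked factors, 3 rose and 5 fell in A549, with FOXC1 at 1.75 ± 0.11, and 5 rose and 5 fell in B2B.

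**Figure D5:**
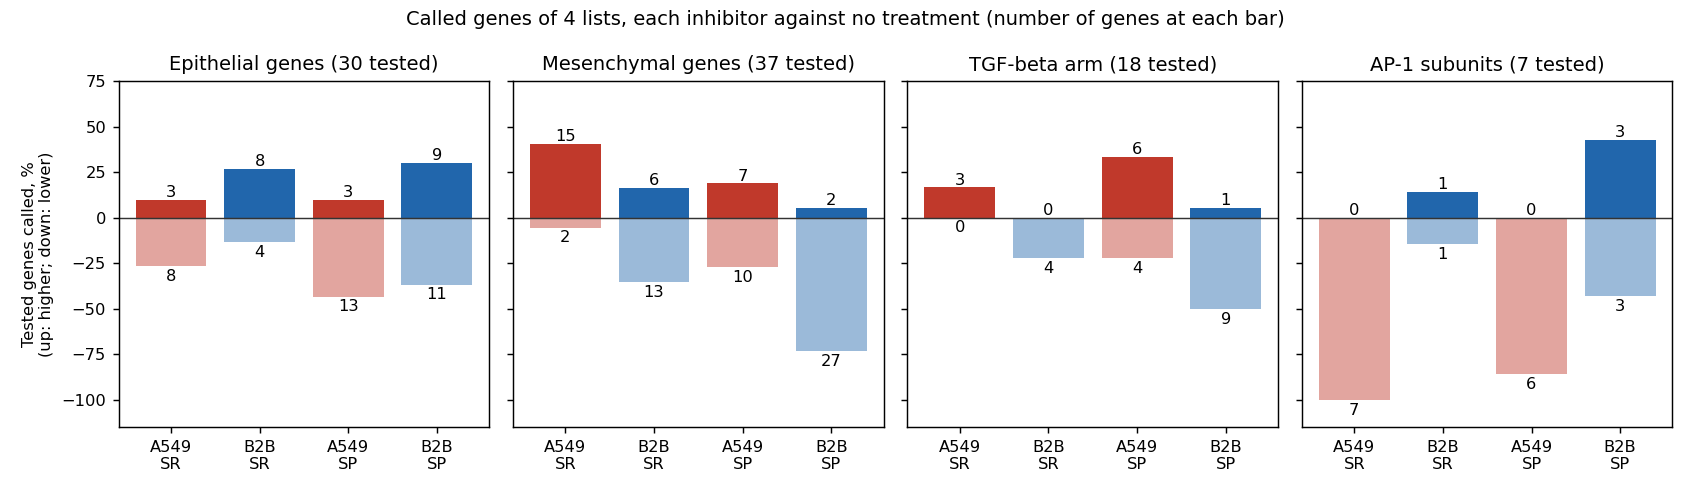
Share of the tested genes of 4 lists called higher (upward, solid) or lower (downward, pale) with SR11302 (SR) or SP600125 (SP) against no treatment in A549 (red) and B2B (blue), with the number of genes at each bar. Mesenchymal genes are called mostly higher in A549 under SR11302 (15 and 2) and mostly lower in B2B under SP600125 (27 and 2), and AP-1 subunits are called lower in A549 under both.

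Upstream of the EMT factors, the 18 genes of the TGF-beta arm comprised ligands, receptors, SMAD proteins, their repressors and latent binding proteins. Fewer of them were called with SR11302 than with SP600125 in each line, and the same held for all genes. SR11302 raised 3 and lowered 0 in A549, among them the ligand gene TGFB2 (0.98 ± 0.17) and the receptor gene TGFBR1 (0.93 ± 0.20), and raised 0 and lowered 4 in B2B, where TGFB2 fell by 1.07 (adjusted p = 0.00036), against 27.8% and 22.5% of all genes called. SP600125 raised 6 and lowered 4 in A549, where TGFB1 fell by 1.43, and raised 1 and lowered 9 in B2B, where TGFBR1 fell by 1.91, against 48.8% and 43.8% of all genes. The difference between the lines was called for 4 genes under SR11302, all towards A549, against 15.8% of all genes. Under SP600125 it was called for 10, 6 towards A549 and 4 towards B2B, against 25.2%.

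The AP-1 subunits, which SR11302 opposes and whose member Jun lies downstream of the JNK that SP600125 inhibits, were lower in 7 of 7 cases with SR11302 in A549 (median -0.97) and in 6 of 7 with SP600125 (median -1.44), with FOSL1 at -1.87 ± 0.25 and -4.02 ± 0.29 and JUN at -0.61 ± 0.12 and -1.55 ± 0.13. Of all genes, 27.8% were called with SR11302 and 48.8% with SP600125 in A549. In B2B, SR11302 called 1 higher and 1 lower, against 22.5% of all genes. SP600125 there called 3 higher (FOS, FOSB and JUNB) and 3 lower (JUN, FOSL1 and FOSL2), against 43.8%. In B2B with SR11302, both libraries lay under the untreated ones for JUN, FOSL1, FOSL2 and FOSB, and above them for FOS, JUNB and JUND. SNAI1 was called lower in all 4 comparisons, and its relation to the AP-1 subunits was not tested. The difference between the lines in effect was called for 5 subunits under each inhibitor, all lower in A549, against 15.8% of all genes for SR11302 and 25.2% for SP600125.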

How the data were processed

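Polyadenylated RNA of 12 libraries (6 groups of 2) was extracted with TRIzol, treated with DNase and made into libraries with a KAPA mRNA HyperPrep kit. The authors aligned reads to hg38 with STAR 2.7.10a and deposited HTSeq 1.99.2 counts per gene symbol, not normalized. Neither the annotation release nor the strand setting was found in these sources. HTSeq's rows that name no gene were left out of library sizes and tests. They included reads assigned to no annotated feature, at 14.6 to 25.9% of the tally per library. The files hold no columns of the authors' own comparisons.

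Samples were grouped by their labels. Counts were tested with edgeR 4.0.16 in R 4.3.3 (filterByExpr, TMM scaling, 1 model of 6 groups over the 12 libraries with 6 residual degrees of freedom, quasi-likelihood F test, Benjamini-Hochberg adjustment over all 16373 genes tested). Groups were compared in 7 contrasts, and 2 interaction terms compared each inhibitor's effect between lines. The filter, fit and test were tested on simulated data. Direct comparisons of the inhibitors, given at different doses, were not made. Alternatives were RLE size factors, library size alone, no filter on low counts, DESeq2 1.42.0, the replicate number as a block, no fold minimum and leaving out each library. Leaving out both untreated second libraries was added after seeing the data.

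The members and all lists were chosen with earlier results of these data known. Named were all 10 members, up to 4 called genes of largest change per list and comparison, the 7 AP-1 subunits, and for each tested member the 3 genes most alike on log2(CPM + 1). Cell type markers, POSTN and CDH1 are also given as levels. Counts of 13969766 to 24917854 per library limit the precision of low genes, and counting intervals (95%, exact) and floors of 3 counts cover counting error only. Replicates of a group differed by more than sampling noise, with a chi-square per degree of freedom of 2.49 to 40.8, and none was a duplicate.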

Additional observations from a re-analysis of the deposited data

Results flagged for a closer look

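For 6 results the effect of an inhibitor differed between the lines by the interaction test, each given as the A549 effect minus the B2B effect on the log2 scale. With SR11302 the difference was 4.65 for SNAI2, which rose in A549 and fell in B2B, 1.62 for ZEB2, which rose in A549 and was not called in B2B, and -1.95 for ESRP2, which fell in A549 and was not called in B2B. With SP600125 it was 0.94 for ZEB2, 1.18 for VIM, which fell in B2B and was not called in A549, and -3.99 for ESRP2, which fell in both lines. The values for SNAI2 and for ESRP2 under SP600125 rest on groups with 4 reads and 1 read.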

How the results depend on the processing

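Among 1458 alternative values of the 81 member results, 1379 kept their direction and side of the threshold, 46 lost the threshold, 12 gained it and 21 changed sign. Those 21 belong to 10 results that were not called, and no called result changed sign. Of 45 called results, 35 were kept under every alternative of scaling, filter, tool, block and libraries. Without the fold minimum, TWIST2 and VIM between lines under SR11302, VIM between lines under SP600125 and VIM with SR11302 in A549 were also called, for 9, 8 and 6 members in these comparisons. TWIST2 between untreated lines was -0.0079 with RLE size factors, -0.11 with library size alone and -0.0081 with DESeq2, and -0.14 to 0.17 with 1 library left out. VIM with SR11302 in B2B was 0.055 with library size alone, 0.0018 with both untreated second libraries left out and -0.049 to 0.0038 with 1 left out. With 1 library left out, the other results that changed sign ran from -0.22 to 0.00091 for ZEB1 between lines under SP600125, -0.24 to 0.23 for ZEB1, -0.89 to 0.17 for TWIST1 with SR11302 in A549, and -0.60 to 4.85 for SNAI2 and -0.014 to 0.26 for TWIST2 with SP600125 in A549. The line difference in effect ran from -0.75 to 0.33 for TWIST1 and -1.05 to 1.82 for ESRP1 with SR11302, and -0.32 to 0.37 for TWIST1 with SP600125. With SP600125 against no treatment in A549, 3 members were called with the replicate number as a block in place of 5, and 2 to 5 with 1 library left out. With SR11302 in B2B, 1 to 2 were called with 1 library left out and 1 with both untreated second libraries left out. The block changed no call other than those of ZEB2 and ESRP1 with SP600125 in A549. As a look at pairing, the difference between replicates 1 and 2 over genes was correlated between groups. This r ran from -0.48 to 0.44 over 15 pairs of groups, 3 of them over 0.1, so the replicate numbers showed no pairing common to all groups. It was highest, at 0.44, for A549_NT with A549_SR11302, and whether those groups were paired is not known. The cause of the changes in call and sign was not tested. With 2 libraries a group, low genes such as SNAI2 and ESRP2 in A549 and ESRP1 in B2B are limited by depth.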

Other observations

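Single genes that work beside the EMT factors differed widely between the untreated lines, where 56.9% of all genes were called. Of 16 splicing factors, 3 were higher and 5 lower in A549_NT, with RBM47, another epithelial splicing regulator, at 6.56 ± 0.26 and CELF2 at -6.32 ± 0.37. Under the inhibitors the muscleblind gene MBNL2 rose in A549 (1.28 with SR11302 and 1.71 with SP600125), and NOVA1 rose in B2B (2.17 and 2.21). NOVA1 was also higher in A549_SP600125, at 28.9 and 24.1 CPM, than in A549_NT, at 11.2 and 10.6. Of 13 intermediate filament genes tested, 6 were higher and 3 lower in A549_NT, among them the neurofilament gene NEFL, at 29.1 and 29.3 CPM in A549_NT and 0.0958 and 0.0814 CPM in B2B_NT. NEFL rose further in A549, to 108 and 124 CPM with SR11302 and 120 and 108 CPM with SP600125. The filament gene NES fell with SP600125 in both lines (-1.67 in A549 and -1.91 in B2B).

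Of 16 corepressor and chromatin genes that work with SNAI and ZEB factors, 2 were higher and 3 lower in A549_NT. SMARCA4, a chromatin remodelling ATPase, stood at 36.4 and 39.3 CPM in A549_NT and 349 and 349 CPM in B2B_NT. With SP600125, 7 were lower in each line and 0 higher in A549 and 2 in B2B, where 48.8% and 43.8% of all genes were called. Of 16 genes that set the stability of the SNAIL protein, SR11302 called 1 higher and 1 lower in A549, against 27.8% of all genes. In B2B it called 3 higher and 1 lower, against 22.5%. SP600125 called 5 higher and 4 lower in A549, and 4 and 4 in B2B, against 48.8% and 43.8%. In this list the kinase gene CSNK1E fell in all 4 inhibitor comparisons (-1.75 and -2.14 in A549 with SR11302 and SP600125, -1.30 and -1.92 in B2B). The deubiquitinase gene USP27X rose in all 4 (0.94 and 1.20 in A549, 0.69 and 1.57 in B2B). CSNK1E was low, at 1.95 and 1.27 CPM in A549_NT and 0.52 and 0.21 in A549_SP600125. It stood at 2.39 and 2.93 CPM in B2B_NT and 0.68 and 0.73 in B2B_SP600125, so depth limits its values.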
